A study of Mus musculus with 21 samples.

Results

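The genes described here are those that stood higher in 2i than in SL in all 4 lines of a mouse embryonic stem cell study. The choice used group means: the mean of each of the 8 groups was taken from the deposited expression table, and a gene was kept when the lowest of its 4 means in 2i was at least 50 and at least 3 times the highest of its 4 means in SL. The choice left 50 of 16443 genes. Because measured values chose them, every 2i and SL value below is a description of what was chosen and carries no test.

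The cells were 2TS22C, a mouse embryonic stem cell line. In the FNV, miniSOX and SOX2 lines endogenous SOX2 was silenced, doxycycline (DOX) is listed as the treatment, and a lentivirus supplied SOX17FNV, miniSOX or SOX2. NTC cells were untransduced, are labelled WT and list no DOX, so the rescue lines differ from them in virus, silencing and drug together. Each line grew in serum and LIF (SL) and in serum and LIF with 2i. The 21 libraries comprised 4 FNV, 2 miniSOX, 4 SOX2 and 3 NTC libraries in 2i and 2 of each line in SL. They fall into 2 sets by their titles, called waves here. Replicates 1 and 2 of FNV, SOX2 and NTC in both media make up the first wave (12 libraries). The second has 9, namely the libraries called p21 and p31, all in 2i, and all of miniSOX. Nothing in the labels makes replicates 1 and 2 separate cultures, so the p-values below reflect the spread among these samples alone, part of which may be technical.

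The 2i mixture holds an inhibitor of the kinase MEK, which lies upstream of ERK, and an inhibitor of the kinase GSK3. Mouse embryonic stem cells kept in it are known for a more uniform naive state, the state of the preimplantation epiblast, with low ERK signalling. Blocking GSK3 stabilises beta-catenin, which relieves repression by Tcf7l1 and can switch on Wnt target genes such as the caudal homeobox genes.

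Values are the authors' normalized values, whole numbers with nearly the same distribution in every library (totals from 14044316 to 14047262, median 214 in each), so sequencing depth is unknown. Whether they are corrected for gene length is not stated, so levels are compared between samples of a gene and not between genes. The summed level of 6 embryonic stem cell markers was 31700 to 47630 in 2i and 27208 to 46689 in SL. Summed fibroblast markers (10 of 10 measured) were 154 to 354 in 2i and 255 to 2017 in SL. A wider fibroblast list (14 measured) summed to 19264 to 41521 in 2i and 7070 to 10858 in SL. Most of that sum was Fn1, which encodes fibronectin (14818 to 40741 in 2i and 5797 to 9102 in SL), and without Fn1 the sums were 347 to 4446 in 2i and 981 to 2615 in SL. Trophectoderm markers (6 of 6) summed to 26 to 682 in 2i and 142 to 1730 in SL. The blood and endothelium markers measured (4 of 5) summed to 35 to 216 in 2i and 96 to 190 in SL. Of the primitive endoderm and neuroectoderm markers few were measured (2 of 4 and 1 of 4), with sums of 36 to 449 and 0 to 26 in 2i and 24 to 358 and 8 to 73 in SL. The fibroblast marker Lum was at 0 in every SL library. The part of these cells in the results was not tested, and in bulk RNA fewer cells of a type cannot be told apart from less RNA per cell. Sox2 was 19 to 60 in all FNV and miniSOX libraries, and Sox17 was 0 to 6 in all SOX2 and NTC libraries.

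**Figure D1:**
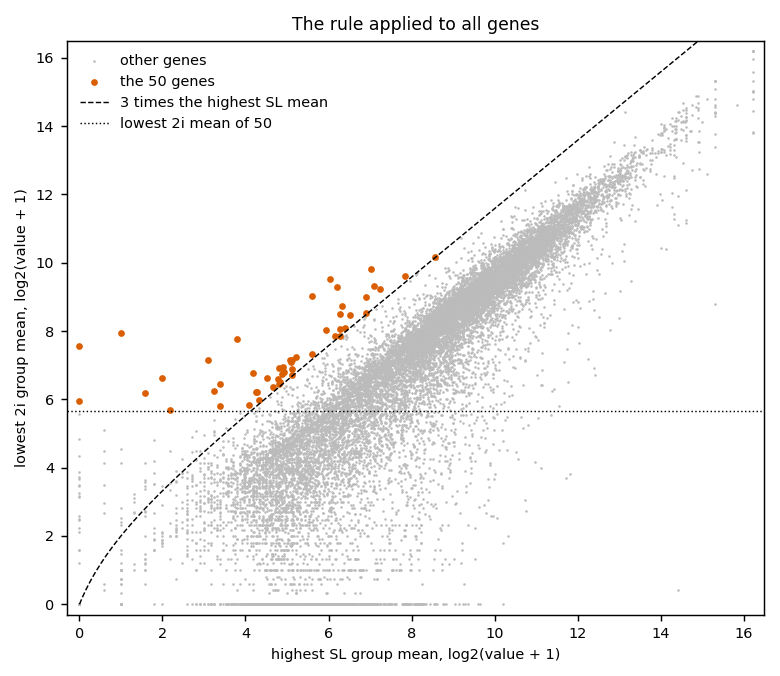
Each point is a gene, with its highest SL group mean on the horizontal axis and its lowest 2i group mean on the vertical axis, both as log2 of the normalized value + 1. The 50 genes lie above both the dashed line (3 times the highest SL mean) and the dotted line (a lowest 2i mean of 50), and other genes are grey.

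Taken line by line, far more genes passed. The same floor and ratio applied within a line kept 887 genes in FNV, 811 in miniSOX, 742 in SOX2 and 471 in NTC cells. In each of the 4 lines separately, 103 genes passed. Of these, 53 dropped out because the SL mean of 1 line came within 3 times of the 2i mean of another. The mirrored rule, for genes higher in SL in every line, kept 37.

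Across the 50 genes the lowest 2i mean ran from 50.3 to 1157.2 (median 140.3) and the highest SL mean from 0 to 375 (median 31). The median ratio of 2i over SL means was 14.65 in FNV (3.11 to 293 over the 45 genes with an SL mean above 0), 19.32 in miniSOX (4.5 to 538.7 over 46), 12.17 in SOX2 (3.18 to 246.8 over 43) and 7.54 in NTC cells (3.33 to 243.7 over 46). NTC cells thus had the smallest median ratio and miniSOX cells the largest. These ratios are not adjusted for wave, and the lines differ in their share of second-wave libraries. Summed over the 50 genes, a library held 13296 to 26082 in 2i and 1483 to 2013 in SL.

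Some genes sat close to the limits. Just inside the ratio of 3 were Gm10147 (3.01), Marc2 (3.09), Mitf (3.11) and AI464131 (3.11). Just outside were Sh3bp1 (a lowest 2i mean of 838 and a highest SL mean of 279.5, just under 3 times), Relb (2.94), Ror2 (2.91) and Gm31659 (2.89). Just above the floor of 50 were Cd3g (50.33), Pramel5 (55.25), Gm12171 (55.67) and Il22ra2 (61). Just below it were Slc16a14 (48), Olfr1129 (46.75), Cphx1 (44.67) and Adam11 (42.33).

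Group means can hide overlap between libraries. In 35 of the 50 genes (70%) every 2i library stood above every SL library, against 2.65% of all genes, a share that the choice itself raises. In 9 genes the floor and the ratio also held library by library: 2510009E07Rik, Arhgef10l, C130074G19Rik, Cdo1, Cdx1, Crxos, Fam53b, Myh13 and Ttc28.

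**Figure D2:**
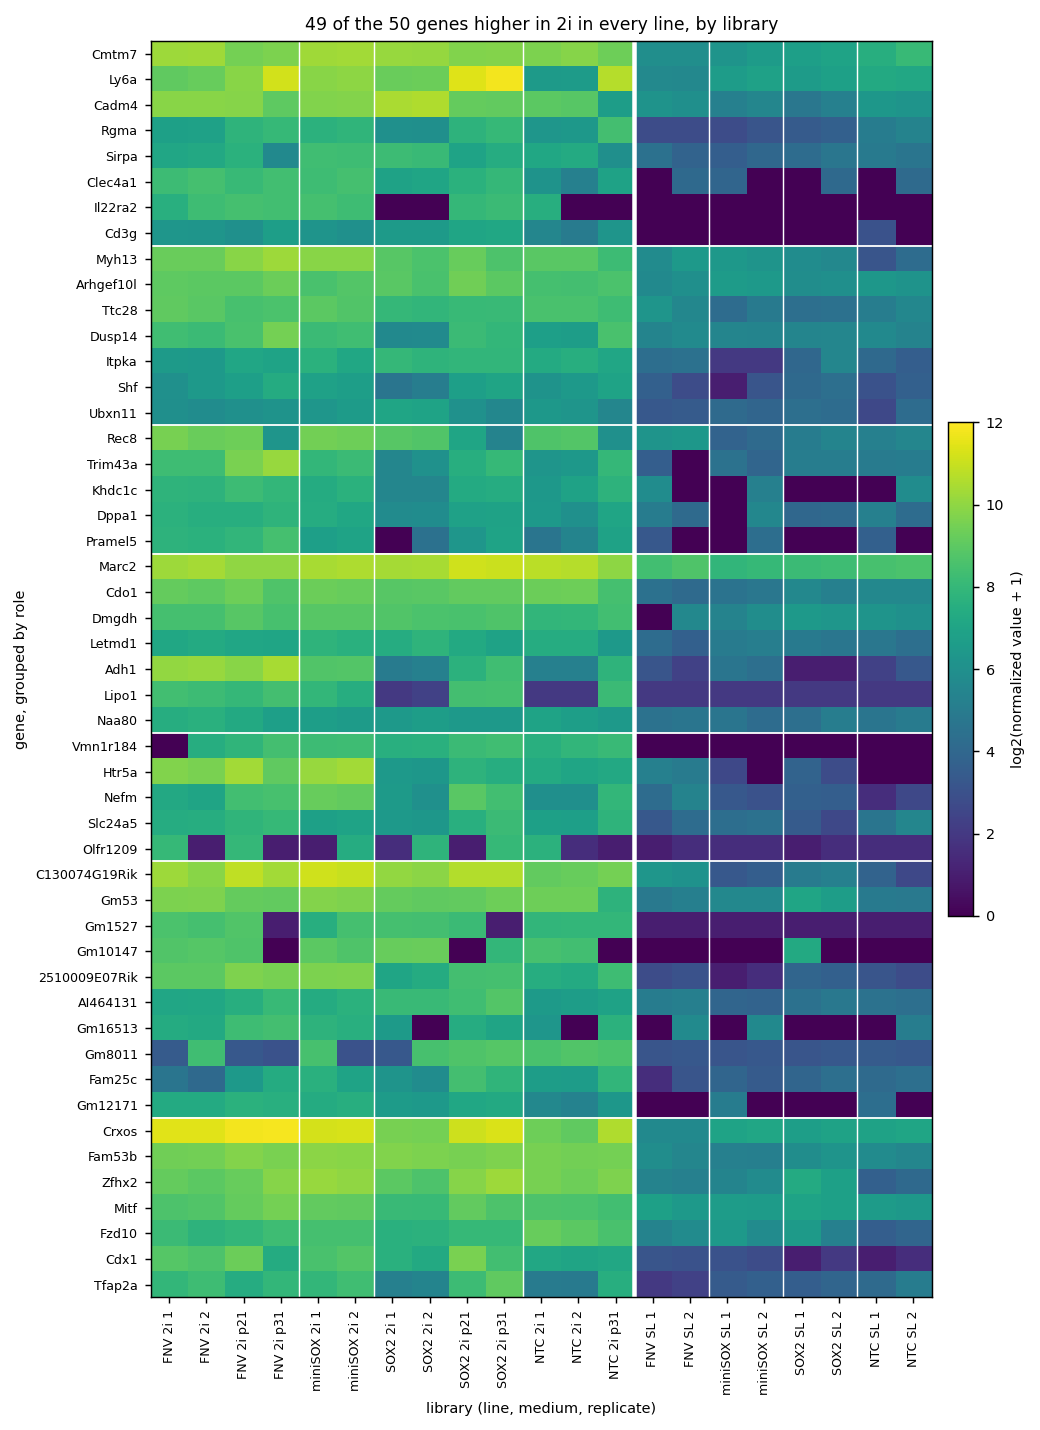
Rows are 49 of the 50 genes grouped by role (from the top: cell surface and immune type, cytoskeleton and intracellular signalling, germline and early embryo, metabolism and mitochondria, neuronal and sensory type, predicted or uncharacterised, transcription factors and Wnt signalling) and columns are the 21 libraries, with the 13 in 2i on the left of the wide white line and the 8 in SL on the right. Colour is log2 of the normalized value + 1, and isolated dark cells on the left are 2i libraries in which a gene was at or near 0.

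Of the 7 transcription factors and Wnt components, Cdx1 is the caudal homeobox factor of the posterior embryo and a known Wnt target (chr18:61018862-61036199 in mm10, minus strand). In 2i it stood at 454, 402, 636 and 165 in FNV cells (replicates 1, 2, p21 and p31, the order used throughout), 370 and 436 in miniSOX cells, 193, 154, 761 and 324 in SOX2 cells and 147, 128 and 147 in NTC cells. In SL it was 8 and 7 in FNV, 7 and 6 in miniSOX, 1 and 3 in SOX2 and 1 and 2 in NTC cells. The groups did not overlap: no SL library exceeded 8, and no 2i library fell below 128. Its 2i values spread most in SOX2 cells, where the second wave was higher than the first.

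Crxos is a homeobox gene of the Crx locus active in the preimplantation embryo (chr7:15882617-15904020, plus strand). In 2i its values were 2837, 2818, 3513 and 3681 in FNV, 2395 and 2447 in miniSOX, 749, 722, 2151 and 2524 in SOX2 and 651, 531 and 1509 in NTC cells. In SL they were 50 and 50 in FNV, 122 and 135 in miniSOX, 105 and 120 in SOX2 and 121 and 132 in NTC cells. FNV cells had the highest values in 2i and the lowest in SL.

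Fam53b, whose zebrafish counterpart is needed to bring beta-catenin into the nucleus, was even across lines. Its 2i means were 752.5 ± 99.6 in FNV (SD, n = 4), 947.5 ± 2.12 in miniSOX (n = 2), 800.2 ± 52.7 in SOX2 (n = 4) and 729.3 ± 23.5 in NTC cells (n = 3). Its SL means were 51 ± 9.90, 35.5 ± 0.71, 65.0 ± 9.90 and 49.5 ± 6.36 in the same order of lines (n = 2 each).

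Zfhx2, a zinc finger homeobox factor, had 2i values of 401 to 1193 (median 745) and SL values of 12 to 160 (median 40.5). Mitf, the helix-loop-helix regulator of melanocytes and of lysosomal genes, had 267 to 715 (median 403) in 2i and 84 to 124 (median 97) in SL. Fzd10, a Frizzled receptor for Wnt ligands, had 193 to 600 (median 292) in 2i and 11 to 91 (median 47.5) in SL. Zfhx2, Mitf and Fzd10 kept 2i and SL apart in every library.

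Tfap2a, the AP-2 factor of trophectoderm and neural crest, did not. In SOX2 cells in 2i it was 37, 41, 295 and 529 and in NTC cells 31, 29 and 185, against 11 and 14 in SOX2 and 17 and 32 in NTC cells in SL. Its first-wave 2i values in NTC cells were thus no higher than the upper NTC value in SL. FNV (174 to 304) and miniSOX cells (246 and 316) in 2i stood well above their SL levels of 3 and 4 and of 10 and 12.

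The 5 germline and early embryo genes were the meiotic cohesin subunit Rec8, the tripartite motif gene Trim43a, the KH-domain gene Khdc1c, the PRAME-like gene Pramel5 and Dppa1. Trim43a was 310, 304, 775 and 1142 in FNV, 243 and 286 in miniSOX, 45, 66, 185 and 262 in SOX2 and 76, 82 and 251 in NTC cells in 2i. In SL it lay between 0 and 33. Rec8 was high in most 2i libraries (732, 613, 656 and 75 in FNV, 685 and 646 in miniSOX, 466, 422, 130 and 40 in SOX2, 416, 441 and 64 in NTC cells). Its p31 libraries, at 75, 40 and 64, fell within the SL range of 13 to 80.

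Khdc1c reached 44 to 294 in 2i (median 170). It was listed at 0 in 5 of 8 SL libraries and at 37 to 57 in the other 3, so its 44 in first-wave SOX2 cells in 2i lay within the SL range. Dppa1 had 54 to 220 (median 132) in 2i and 0 to 46 (median 17.5) in SL. Pramel5 had 0 to 347 (median 119) in 2i and 0 to 19 (median 0) in SL, with its lowest 2i values, 0 and 21, in first-wave SOX2 cells. Trim43a, Khdc1c and Pramel5 belong to families of close copies, so their values depend on how reads were shared among copies and are uncertain.

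Among 7 metabolic and mitochondrial genes, Cdo1, the dioxygenase that starts cysteine breakdown, varied least between lines. Its 2i values were 565, 527, 646 and 412 in FNV, 631 and 587 in miniSOX, 466, 492, 554 and 557 in SOX2 and 637, 659 and 356 in NTC cells. In SL they were 21 and 17, 23 and 26, 48 and 37, and 48 and 47 in the same order. The 4 means in 2i differed by 1.18-fold, the narrowest span of the 50 genes.

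The widest span, 11.42-fold, belonged to Adh1, a class I alcohol dehydrogenase that oxidises retinol and ethanol. Its 2i values were 1065, 1138, 943 and 1362 in FNV, 424 and 448 in miniSOX, 31, 36, 209 and 320 in SOX2 and 36, 37 and 223 in NTC cells. In SL it was 8 and 4 in FNV, 24 and 20 in miniSOX, 1 and 1 in SOX2 and 4 and 9 in NTC cells. FNV cells stood highest in 2i, and the first-wave 2i values of SOX2 and NTC cells lay little above the highest SL value of 24.

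Marc2, a molybdenum enzyme of the mitochondrial outer membrane, was 988 to 2240 in 2i (median 1363) and 237 to 416 in SL (median 317). Dmgdh, the mitochondrial dimethylglycine dehydrogenase, was 236 to 478 (median 371) in 2i and 0 to 88 (median 61) in SL. Letmd1, a mitochondrial membrane protein, was 87 to 221 (median 160) in 2i and 12 to 34 (median 25.5) in SL. Naa80, the acetyltransferase of actin, had 85 to 196 (median 104) in 2i and 18 to 33 (median 24) in SL, but its locus overlaps Hyal1 and Hyal3 on the same strand, with which reads can be confused.

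Genes of cell surface and immune type numbered 8. Cmtm7, a four-span MARVEL membrane protein, had 658 to 1286 in 2i (median 904) and 59 to 275 in SL (median 101), with the highest SL values, 183 and 275, in NTC cells. Cadm4, an adhesion molecule of the nectin-like group, had 100 to 1531 in 2i (median 857) and 26 to 80 in SL (median 53). Its lowest 2i value was that of NTC p31.

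Ly6a, the surface antigen used to mark blood stem cells, was 545, 586, 943 and 2305 in FNV, 936 and 987 in miniSOX, 611, 637, 2761 and 3579 in SOX2 and 92, 94 and 1602 in NTC cells in 2i. In SL it was 49 and 48, 99 and 114, 96 and 113, and 154 and 145 in the same order. Replicates 1 and 2 of NTC thus had less Ly6a in 2i than in SL, and the NTC mean in 2i rests on the p31 library.

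Rgma, a membrane-anchored guidance cue and BMP co-receptor, had 61 to 336 in 2i (median 210) and 6 to 40 in SL (median 9). Sirpa, an inhibitory receptor of myeloid and neural cells, had 50 to 314 (median 162) in 2i and 11 to 30 (median 19.5) in SL. Clec4a1, a C-type lectin receptor, had 37 to 355 (median 257) in 2i and 0 to 17 (median 7) in SL. Cd3g, a chain of the T cell receptor complex, had 31 to 140 (median 75) in 2i, and 7 of 8 SL libraries were at 0. Il22ra2, a secreted decoy receptor for an interleukin, was listed at 0 in every SL library and in 4 of 13 2i libraries, all SOX2 or NTC, and at 183 to 356 in the others.

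Of 5 genes of neuronal and sensory type, the serotonin receptor Htr5a (chr5:27842149-27855088, plus strand) split the lines. In 2i it was 847, 774, 1293 and 535 in FNV, 1138 and 1298 in miniSOX, 87, 81, 215 and 177 in SOX2 and 159, 132 and 150 in NTC cells. In SL it was 36 and 31 in FNV, 5 and 0 in miniSOX, 13 and 6 in SOX2 and 0 in both NTC libraries. FNV and miniSOX cells held the high 2i values, and no SOX2 or NTC library reached them.

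Nefm, the medium neurofilament subunit, was 61 to 600 in 2i (median 245) and 2 to 40 in SL (median 10). Slc24a5, the cation exchanger of melanosomes, was 81 to 293 (median 171) in 2i and 5 to 44 (median 18.5) in SL. The vomeronasal receptor gene Vmn1r184 was listed at 0 in all 8 SL libraries and in FNV replicate 1 in 2i, and at 178 to 335 in the other 2i libraries. Olfr1209, an olfactory receptor gene, was at 1 or 2 in every SL library and in 7 of 13 2i libraries.

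The 8 cytoskeletal and signalling genes separated the media in all libraries, Dusp14 excepted. Myh13, a heavy chain of extraocular muscle myosin, had 301 to 1219 in 2i (median 596) and 8 to 85 in SL (median 55). Arhgef10l, a guanine nucleotide exchange factor for small GTPases, had 337 to 681 (median 490) in 2i and 51 to 94 (median 66) in SL. Ttc28, a tetratricopeptide protein, had 238 to 530 (median 372) in 2i and 18 to 75 (median 31) in SL.

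Itpka, an inositol trisphosphate kinase, had 89 to 253 (median 163) in 2i and 3 to 44 (median 15.5) in SL. The adaptor gene Shf had 24 to 168 (median 104) in 2i and 1 to 20 (median 10) in SL, and Ubxn11 had 45 to 131 (median 70) in 2i and 5 to 20 (median 15.5) in SL. Dusp14, a dual-specificity phosphatase for MAP kinases, stood at 50 and 53 in first-wave SOX2 cells in 2i, within the SL range of 40 to 53, and at 245 and 285 in second-wave SOX2 cells.

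Predicted or uncharacterised genes made up the remaining 10. C130074G19Rik, next to Marc2 on chromosome 1, had 560 to 2219 in 2i (median 1197) and 5 to 78 in SL (median 22). 2510009E07Rik had 131 to 814 (median 355) in 2i and 1 to 14 (median 6.5) in SL. AI464131 had 91 to 443 (median 184) in 2i and 13 to 35 (median 21.5) in SL. The noncoding Gm53 had 215 to 862 (median 655) in 2i and 28 to 134 (median 41) in SL, and the noncoding Gm12171 had 39 to 203 (median 156) in 2i and 0 to 32 (median 0) in SL. Fam25c had 16 to 336 (median 103) in 2i and 2 to 20 (median 14) in SL.

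The other 4 behaved as switches between libraries. Gm1527 was at 1 in all SL libraries and in FNV p31 and SOX2 p31 in 2i, and at 181 to 433 in the other 2i libraries. Gm8011 was 7 to 10 in 5 of the 2i libraries and 323 to 449 in the other 8. Gm10147 was 0 in FNV p31, SOX2 p21 and NTC p31 in 2i and 247 to 614 in the other 2i libraries, while SOX2 replicate 1 in SL had 153. Gm16513 was 0 in SOX2 replicate 2 and NTC replicate 2 in 2i and 79 to 341 elsewhere in 2i.

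Such steps were frequent among the 50 genes. In 9 of them (18%), 1 library of a 2i group was at 10 or less and another of the same group at 100 or more, against 3.34% of all genes. They were Pramel5, Il22ra2, Vmn1r184, Gm10147, Gm1527, Gm16513, Olfr1209, Lipo1 and Gm8011. The choice itself can raise the 18%, since it asks for low SL means and for 2i means that a few high libraries can carry. Lipo1, a lipase family gene, was 3 or 4 in first-wave SOX2 and NTC cells in 2i and 288 to 351 in the second wave, and it was 3 in every SL library. In the 2i groups where these 9 switch, the mean lies far from single libraries. The SL values of Il22ra2, Lipo1, Vmn1r184 and Gm1527 were identical in all 8 libraries. Without read counts, a gene listed at 0 cannot be called absent. Lipo1, Vmn1r184, Olfr1209, Gm8011, Gm16513 and Clec4a1 also have close relatives in the genome, and their values are uncertain for the same reason as those of Trim43a.

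**Figure D3:**
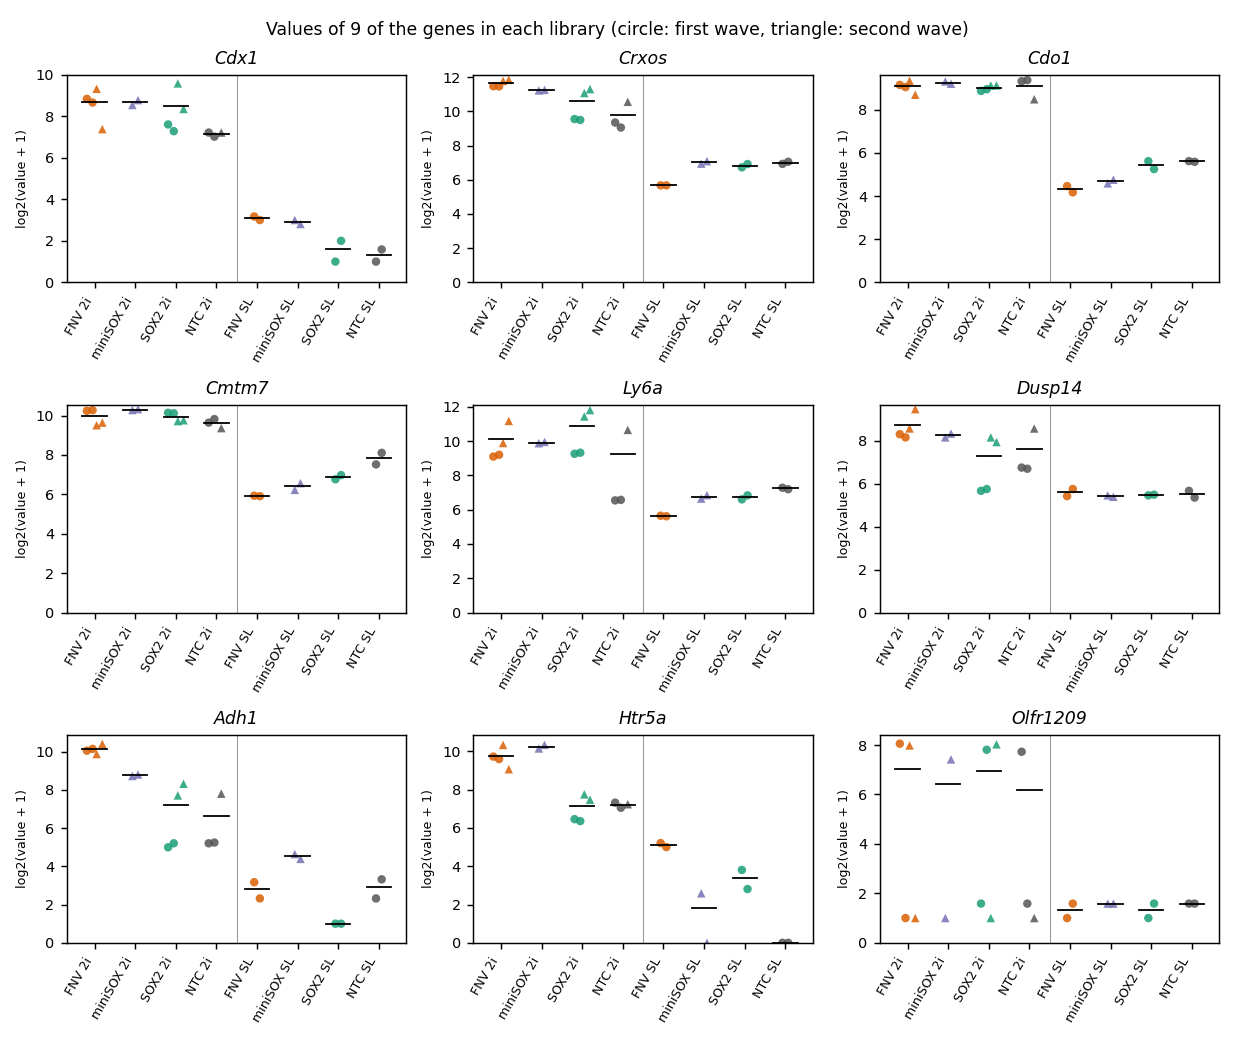
Values of Cdx1, Crxos, Cdo1, Cmtm7, Ly6a, Dusp14, Adh1, Htr5a and Olfr1209 in each of the 21 libraries as log2 of the normalized value + 1, by line and medium, with circles for the first wave and triangles for the second. Bars mark the log2 of the group mean + 1, and the panels show even genes (Cdo1), genes split by line (Htr5a, Adh1), genes split by wave (Dusp14, Ly6a in NTC) and a gene that was either 1 to 2 or at least 170 (Olfr1209).

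The core naive pluripotency genes were not among the 50. Of 23 measured genes of the naive list, 0 met the rule. With 50 of 16443 genes chosen, a list this short would mostly hold 0. Within at least 1 line 14 of the 23 passed, against 10.5% of all genes. In 9 of the 23 every 2i mean stood above every SL mean, against 9.81%. Spic, Pramel6 and Calcoco2 passed within each of the 4 lines (they and the list genes below were picked after their values were seen). In NTC cells in 2i, Pramel6 was 106, 108 and 589 and Calcoco2 599, 661 and 2602, and without p31 neither passed there, while Spic did. Klf4, a naive factor driven by LIF, had 2i means of 5076.2 in FNV, 8736 in miniSOX, 4135.2 in SOX2 and 2480 in NTC cells, against SL means of 3801, 1209.5, 767 and 317.5. Its SL level in FNV cells exceeded the 2i level in NTC cells. Nanog likewise had an SL mean of 19099.5 in FNV cells and a 2i mean of 17072.7 in NTC cells.

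Of 25 measured Wnt and beta-catenin targets, Cdx1 was the sole member. Altogether 11 passed within at least 1 line (10.5% of all genes did), and 6 had every 2i mean above every SL mean (9.81% of all genes). Cdx2, the caudal factor of trophectoderm, passed in 3 lines, with 2i means of 287.2 in FNV, 96 in miniSOX, 16.8 in SOX2 and 182 in NTC cells and SL means of 0 to 1. Its NTC values in 2i were 15, 12 and 519, so the pass in NTC cells rests on p31. Axin2, a feedback inhibitor of the pathway, had 2i means of 321.8 in FNV, 590 in miniSOX, 229.8 in SOX2 and 589.3 in NTC cells, against SL means of 204.5, 396.5, 143 and 41.5, and passed in NTC cells alone.

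None of 18 measured ERK feedback and ETS targets passed in any line, and in 8 of them every SL mean stood above every 2i mean, against 9% of all genes. The 15 LIF and STAT3 targets also held 0 members, as most lists this short would with 50 of 16443 genes chosen. The trophectoderm list (21 measured) held Tfap2a, the neuroectoderm list (10) held Nefm, and the lysosome list (25) held Mitf. The general pluripotency (14), formative and primed (17), germline and meiosis (28), primitive and visceral endoderm (16), fibroblast (14), blood and endothelial (11), interferon (11) and integrated stress response (21) lists held 0.

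**Figure D4:**
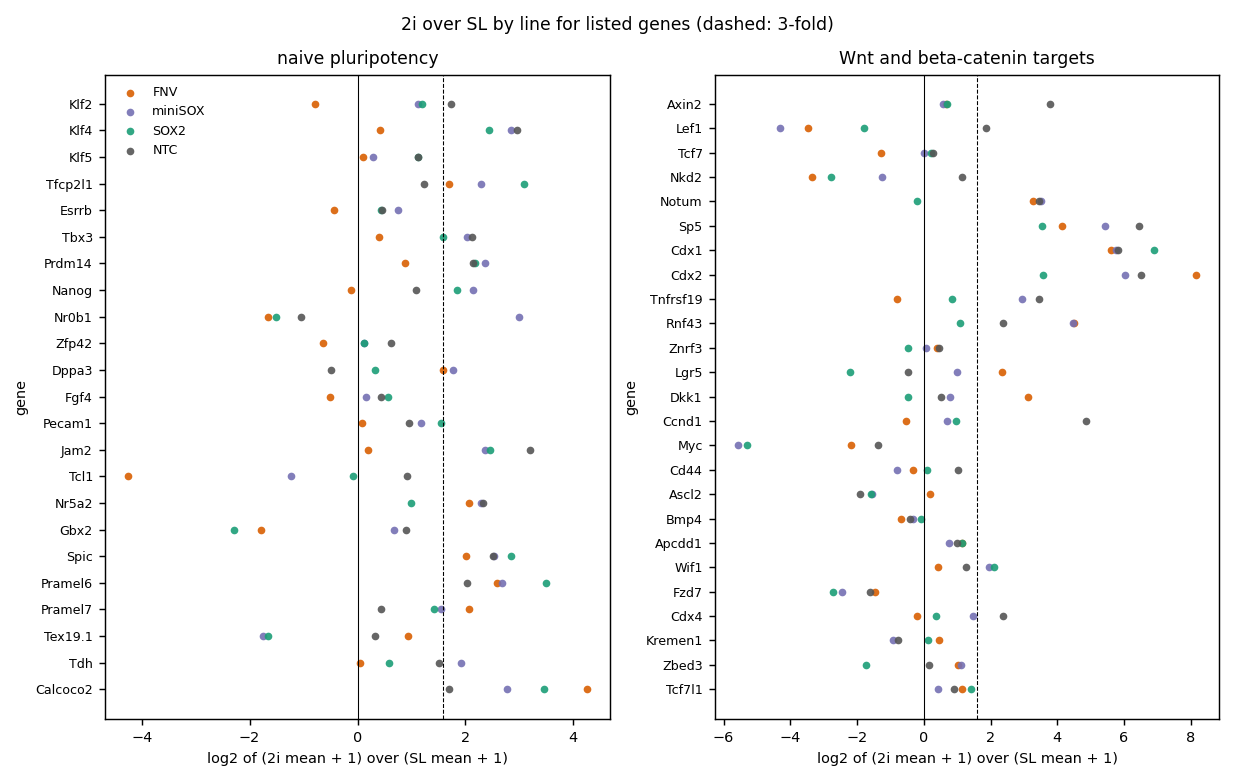
Log2 of the ratio of (2i mean + 1) to (SL mean + 1) in each line for the naive pluripotency genes (left) and the Wnt and beta-catenin targets (right), with the dashed line at 3-fold. Cdx1 is past 3-fold in every line, while Klf4 and Axin2 pass in some lines and not in others.

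The group means in 2i differed between lines. The 4 group means in 2i of a member spanned 2.31-fold at the median (1.18 to 11.42), against 1.4-fold over the 10874 genes whose lowest 2i mean was at least 50. The same 2i means chose the members, and the choice can widen this span, since a few high libraries can carry a mean. The highest 2i mean was in FNV cells for 16 genes, in miniSOX cells for 24, in SOX2 cells for 8 and in NTC cells for 2 (4%, against 33.1% of the 10874 genes). The lowest was in FNV cells for 8, in miniSOX cells for 1, in SOX2 cells for 12 and in NTC cells for 29 (58%, against 30.7%). The median of the member means in 2i was 300.1 in FNV, 326.8 in miniSOX, 233.4 in SOX2 and 154.8 in NTC cells. In SL it was 19.5, 15.8, 19.8 and 17.5 in the same order. None of these means is adjusted for wave. All miniSOX libraries are second-wave, while in NTC cells p31 alone is, so line and wave are mixed in these rankings.

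Differences between lines within a medium were then tested with limma on log2(value + 1), with the wave as a covariate and Benjamini-Hochberg adjustment over all 16443 genes. A gene was called at an adjusted p under 0.05. Adding 1 shrinks the log2 changes of low genes, but single libraries at or near 0 can enlarge them well beyond the ratio of group means. Il22ra2, for example, had 2i means of 293.25 in FNV and 61 in NTC cells and a log2 change of 5.27. The libraries compared also chose the members, and the rule keeps the lowest line of a member above 50 in 2i. The comparisons with NTC share the NTC libraries, so they are not independent of each other.

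In FNV cells against NTC cells in 2i, 24 of the 50 genes were called (48%, against 39.7% of all genes). Of these 21 were higher (background 19.7%) and 3 lower (background 20%). The median log2 change of the 50 was 0.70, against -0.01 over all genes, and 41 had a positive estimate (82%, against 48.7% of all genes). Adh1 rose, with all 4 FNV values above all 3 NTC values (log2 change 3.75 ± 0.50 (SE), limma adjusted p = 3.62e-05). Crxos rose by 1.80 ± 0.21 (adjusted p = 9.98e-06) and Htr5a by 2.40 ± 0.49 (adjusted p = 0.00117), also with no overlap between the libraries.

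In the same comparison, 2510009E07Rik rose by 1.43 ± 0.17 (limma adjusted p = 1.07e-05) and Cadm4 by 1.68 ± 0.28 (adjusted p = 0.000262). Fam25c fell by 1.77 ± 0.38 (adjusted p = 0.00164), with 24, 16, 87 and 166 in FNV cells, against 103, 99 and 234 in NTC cells, and its call was lost without the wave term (log2 change -1.43, adjusted p = 0.172). Altogether 13 of the 24 calls (12 higher, 1 lower) held whichever of the 7 libraries was left out. The others were Cdx1, Cmtm7, Fzd10, Gm53, Gm8011, Il22ra2, Lipo1, Myh13, Naa80, Nefm and Tfap2a. Among them Il22ra2 had the largest change (log2 change 5.27 ± 1.93, limma adjusted p = 0.0415), which was 2.25 without NTC p31 (adjusted p = 0.41) and lost its call too without FNV replicate 1 (0.0928), 2 (0.11) or p21 (0.0506) or NTC replicate 2 (0.144). Without the 9 switching genes 21 calls were left.

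Cdx1 showed how narrow some calls were. Its FNV values of 165 to 636 all exceeded the NTC values of 128 to 147 in 2i, and its log2 change was 1.33 ± 0.48 (limma adjusted p = 0.0391). The call was lost on leaving out any of 6 of the 7 libraries (FNV p31 excepted), with adjusted p up to 0.149, reached without NTC p31. It was lost as well with first-wave replicates averaged (0.209), with a pseudocount of 0.1 (0.0545) and in a fit of the 2 groups alone (0.0714). For Tfap2a (log2 change 1.79 ± 0.60, limma adjusted p = 0.0274), leaving out FNV replicate 1 or 2 or NTC replicate 1 or 2 ended the call, with adjusted p up to 0.114, and averaging the first-wave replicates gave 0.267.

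In miniSOX cells against NTC cells in 2i, 12 of the 50 were called, all higher (24%, against 27.7% of all genes in either direction and 14.3% higher). The lower background was 13.5%. The median log2 change was 0.73, and 38 estimates were positive (76%, against 48.7% of all genes). Htr5a rose by 2.72 ± 0.63 (log2, limma adjusted p = 0.00514) and Sirpa, at 314 and 311 against 139, 162 and 62, by 2.05 ± 0.45 (adjusted p = 0.00372).

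The miniSOX libraries all belong to the second wave, which NTC cells share through p31 alone, so the wave term weighs heavily here. Cadm4 rose by 2.41 ± 0.37 (limma adjusted p = 0.000233) with it, and its log2 change was 1.58 without it (adjusted p = 0.0713). Rec8 rose by 3.04 ± 0.71 (limma adjusted p = 0.00531) with it, while without it the log2 change was 1.54 (adjusted p = 0.348). The calls of Sirpa (adjusted p = 0.0622 without the wave term) and Htr5a (0.0916 with a pseudocount of 0.1) were also not held throughout. Leaving out each of the 5 libraries in turn kept 8 of the 12 calls, those other than Crxos, Gm53, Letmd1 and Nefm. In a fit of these 2 groups alone 27 of the 50 genes were called.

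In SOX2-rescued cells against NTC cells in 2i, 8 of the 50 were called (16%, against 28.7% of all genes), 7 higher (background 14.4%) and 1 lower (background 14.3%). The median log2 change was 0.24 and 30 estimates were positive (60%, against 51.5% of all genes). The balance of directions varied with the libraries fitted. First-wave libraries alone gave 12 calls, 6 higher and 6 lower. A fit of the 2 groups alone gave 17, 12 higher and 5 lower. Cadm4 was 1405, 1531, 573 and 562 in SOX2 cells, against 508, 470 and 100 in NTC cells (log2 change 1.87 ± 0.28, limma adjusted p = 0.000253). AI464131 was 276, 282, 322 and 443, against 91, 102 and 120 (log2 change 1.56 ± 0.16, limma adjusted p = 9.01e-06). Ly6a rose by 2.13 ± 0.40 (limma adjusted p = 0.00132), although SOX2 replicates 1 and 2 lay below NTC p31, and its call was lost without the wave term (adjusted p = 0.0559) and with first-wave replicates averaged (0.0743).

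Fzd10 was the gene that fell, with 193, 210, 261 and 260 in SOX2 cells, against 600, 507 and 372 in NTC cells (log2 change -1.08 ± 0.27, limma adjusted p = 0.00867). In FNV cells, at 292, 213, 246 and 312, it also fell against NTC (log2 change -0.89 ± 0.27, limma adjusted p = 0.0183). That second call was lost without FNV replicate 2 (adjusted p = 0.0642), NTC replicate 1 (0.0855) or NTC replicate 2 (0.0566). With first-wave replicates averaged, Fzd10 lost its call in SOX2 (adjusted p = 0.0539) and FNV cells (0.0605). Of the 8 SOX2 calls, Arhgef10l, Cmtm7 and Sirpa were lost when single libraries were left out, and 5 calls were left without NTC replicate 2. Sirpa (log2 change 1.01 ± 0.35, limma adjusted p = 0.0406) kept its call only without SOX2 p21, with adjusted p up to 0.179 otherwise.

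FNV cells set directly against SOX2-rescued cells in 2i gave 17 calls (34%, against 25.2% of all genes), 13 higher (background 12.4%) and 4 lower (background 12.9%). The median log2 change was 0.34 and 32 estimates were positive (64%, against 47.7% of all genes). Adh1 (log2 change 3.56 ± 0.46, limma adjusted p = 6.23e-05), Htr5a (2.67 ± 0.45, adjusted p = 0.000526) and Trim43a (2.28 ± 0.50, adjusted p = 0.004) had FNV values above all SOX2 values. Trim43a lost its call in the first wave alone (limma adjusted p = 0.0689). Dusp14 was 316, 285, 381 and 711 in FNV cells, against 50, 53, 285 and 245 in SOX2 cells (log2 change 1.75 ± 0.26, limma adjusted p = 0.000185).

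Among the genes that fell against SOX2 cells, Itpka was 92, 89, 135 and 124 in FNV cells, against 253, 220, 236 and 234 in SOX2 cells (log2 change -1.11 ± 0.26, limma adjusted p = 0.00539). AI464131 fell by 0.88 ± 0.14 (adjusted p = 0.000433) and Fam25c by 1.44 ± 0.34 (adjusted p = 0.00688). The call of Fam25c was lost without the wave term (adjusted p = 0.189) and with first-wave replicates averaged (0.0505). Leaving out each of the 8 libraries in turn kept 11 of the 17 calls. Among those lost in at least 1 case were Lipo1, Marc2, Mitf, Myh13 and Pramel5. For Marc2 (log2 change -0.57 ± 0.19, limma adjusted p = 0.0437) the first wave alone gave -0.07 (adjusted p = 0.697), and leaving out FNV replicate 1, p21 or p31 or SOX2 p21 or p31 ended the call, with adjusted p up to 0.148 (without SOX2 p21).

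**Figure D5:**
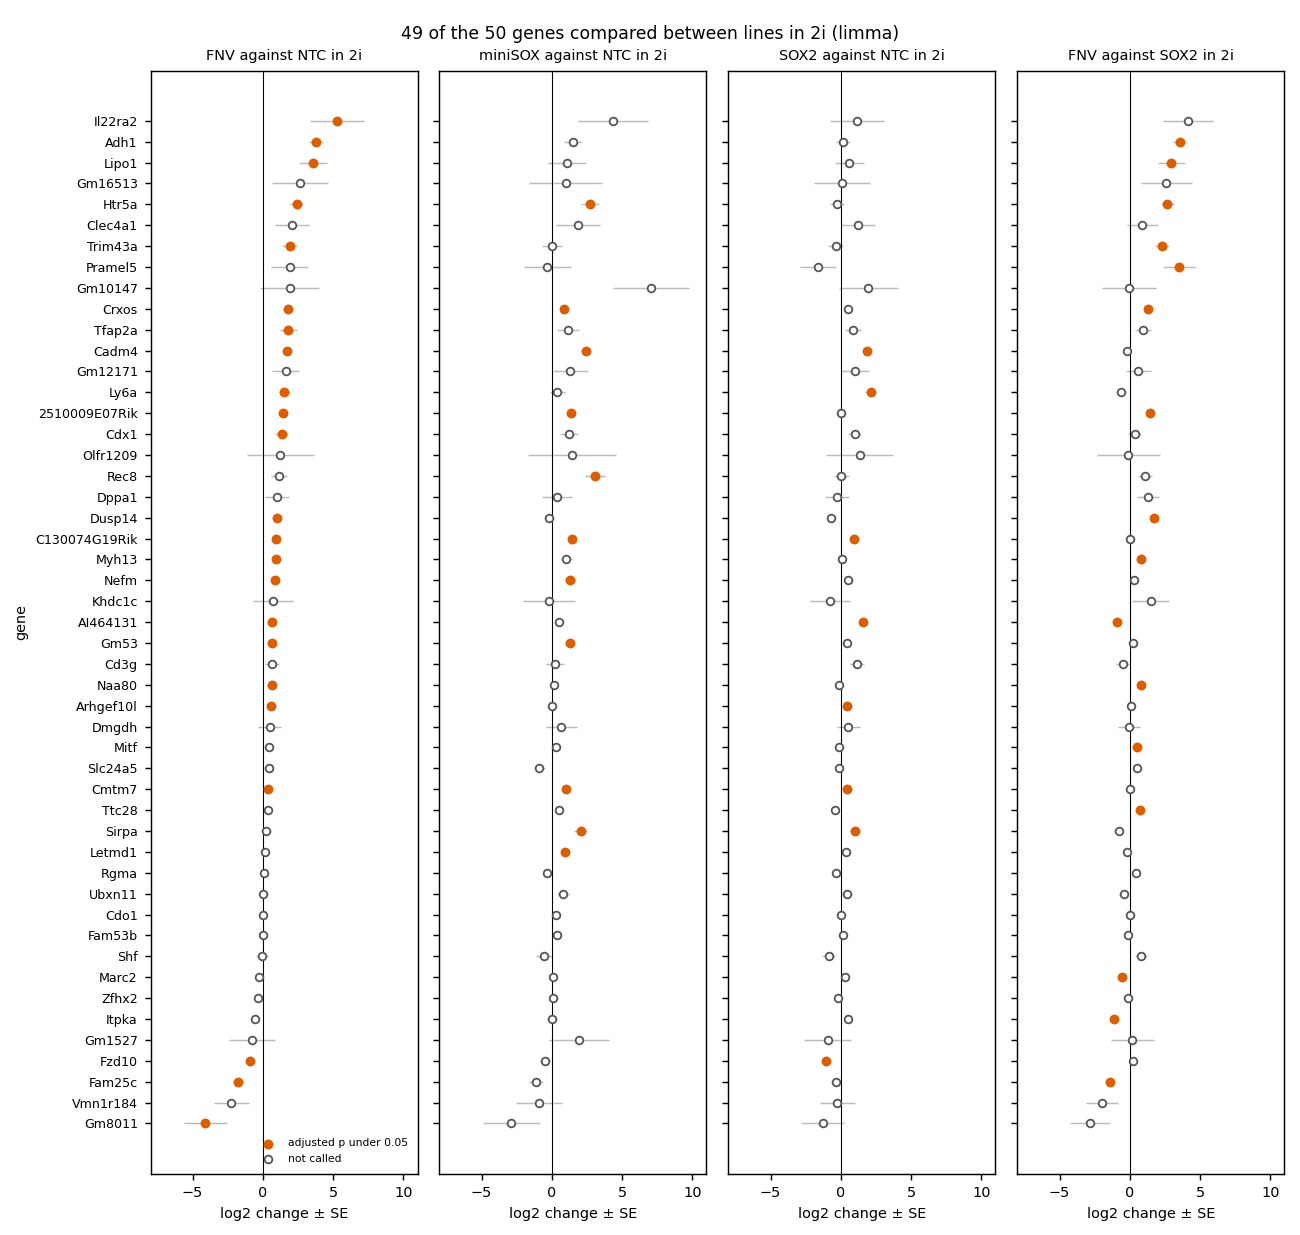
Log2 change ± SE (limma) of 49 of the 50 genes between lines in 2i, in 4 panels ordered by the change in FNV against NTC cells. Filled points have an adjusted p under 0.05, and positive values mean higher in the line named first; the FNV against NTC panel holds 20 filled points to the right and 3 to the left.

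By role, the cell surface and immune genes had the largest median change in SOX2 against NTC cells (1.15, 4 of 8 called higher) and were also called higher in 4 of 8 in FNV cells and 3 of 8 in miniSOX cells against NTC (the shares of all genes called higher against NTC were 19.7% for FNV, 14.3% for miniSOX and 14.4% for SOX2). Between FNV and SOX2 cells in 2i their median was -0.10. Of the 7 transcription factors and Wnt genes, Cdx1, Crxos and Tfap2a rose and Fzd10 fell in FNV against NTC cells. Of the listed Wnt targets as a whole (25 measured), 4 were higher and 13 lower in FNV against NTC cells in 2i, 2 higher and 8 lower in miniSOX and 9 lower in SOX2 cells. Over all genes 20% were lower in FNV, 13.5% in miniSOX and 14.3% in SOX2 cells. Naive list genes (23) divided into 7 higher and 11 lower in FNV, 9 and 7 in miniSOX and 7 and 4 in SOX2 cells. No list count was repeated without NTC p31 or without the wave term. Several Wnt targets in p31 lay far from NTC replicates 1 and 2 in 2i. Apcdd1 was 117, 135 and 738 (p31 last), while Ccnd1 was lower in p31, at 1742, 2054 and 1261.

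Lists of other cell types moved between lines as well, and their part in the line differences of the members was not tested. Of 21 trophectoderm genes, which include the member Tfap2a, 10 were higher and 2 lower in FNV against NTC cells in 2i (median log2 change 1.53) and 11 higher and 1 lower in FNV against SOX2 cells (1.48). In miniSOX against NTC cells 5 were higher and 3 lower (median 0), and in SOX2 against NTC cells 1 was higher and 9 lower (-0.32). Of 14 fibroblast genes, 7 were higher and 2 lower in FNV (median 1.12), 7 and 2 in miniSOX (1.72) and 5 and 2 in SOX2 cells (0.68), each against NTC cells in 2i.

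In SL, where the 50 genes were low, lines still differed. SOX2-rescued against NTC cells gave 14 calls (28%, against 15.0% of all genes), 8 higher (background 7.35%) and 6 lower (background 7.63%), with a median log2 change of -0.06. Zfhx2 was 160 and 111 in SOX2 cells, against 12 and 16 in NTC cells (log2 change 3.18 ± 0.29, limma adjusted p = 7.38e-06). Fzd10 was 91 and 37, against 11 and 14 (2.14 ± 0.36, adjusted p = 0.00124), and Myh13 56 and 47, against 8 and 18 (2.00 ± 0.38, adjusted p = 0.00293). Rgma fell, at 10 and 12 against 32 and 40 (log2 change -1.62 ± 0.25, limma adjusted p = 0.000718), as did Slc24a5, at 10 and 5 against 24 and 44 (-2.05 ± 0.38, adjusted p = 0.00251).

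Htr5a was 13 and 6 in SOX2 cells in SL, against 0 in both NTC libraries, and was called higher (limma adjusted p = 0.00312), a call lost with a pseudocount of 10 in place of 1 (adjusted p = 0.106). Of the 14 calls, 9 held whichever of the 4 libraries was left out, and 2510009E07Rik, Cadm4, Nefm and Ttc28 were among those that did not. With the 2 replicates of the first wave averaged, 3 calls were left, and those of Myh13 (adjusted p = 0.116), Rgma (0.116), Slc24a5 (0.0659) and Htr5a (0.232) were lost. In a fit of the 2 groups alone 3 calls were left, without Fzd10 (0.0894). Each SL group has 2 libraries of unknown independence, and the SL spread is partly borrowed from the 2i libraries.

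FNV against SOX2-rescued cells in SL gave 16 calls (32%, against 21.4% of all genes), 5 higher (background 10.2%) and 11 lower (background 11.2%), with a median log2 change of 0. Ttc28 was 75 and 46 in FNV cells, against 20 and 21 in SOX2 cells (log2 change 1.48 ± 0.25, limma adjusted p = 0.000951). Zfhx2 fell, at 40 and 36 against 160 and 111 (log2 change -1.79 ± 0.29, limma adjusted p = 0.000652), and so did Gm53, at 28 and 35 against 134 and 103 (-1.87 ± 0.32, adjusted p = 0.000855).

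Trim43a was 11 and 0 in FNV cells in SL, against 33 and 33 in SOX2 cells (log2 change -3.30 ± 0.71, limma adjusted p = 0.00458), a change of -1.50 without FNV replicate 2 and -5.09 without FNV replicate 1. Its call was lost in a fit of the 2 groups alone (adjusted p = 0.191). Dmgdh was 0 and 47 in FNV cells, against 88 and 78 in SOX2 cells (log2 change -3.60 ± 1.07, adjusted p = 0.028). Without FNV replicate 1 the change of Dmgdh was -0.80, and its call was lost without SOX2 replicate 1 (adjusted p = 0.105) or replicate 2 (0.0929). Of the 16 calls, 6 held whichever of the 4 libraries was left out, among them Cmtm7, Gm53, Trim43a, Ttc28 and Zfhx2. There were 9 calls without SOX2 replicate 1 and 9 without replicate 2. With first-wave replicates averaged 2 calls were left, and Ttc28 (limma adjusted p = 0.0749), Zfhx2 (0.0777) and Gm53 (0.0954) were lost.

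The wave moved with the 2i level of the members. In 2i the second-wave libraries exceeded the first-wave ones in 36 of the 50 genes in SOX2 cells (median log2 difference 0.71), 31 in FNV cells (0.16) and 29 in NTC cells (0.19), while the median over all genes was -0.02, -0.01 and -0.01. Choosing genes on the first wave of FNV, SOX2 and NTC cells, with miniSOX as it is, kept 38 genes, of which 27 were among the 50. Leaving out NTC p31 kept 43, with 35 shared. The genes lost without it were AI464131, Adh1, Cd3g, Dmgdh, Dppa1, Dusp14, Gm12171, Gm16513, Lipo1, Ly6a, Nefm, Pramel5, Rgma, Tfap2a and Trim43a. For these 15 the place in the set rests on 1 NTC library.

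The 50 genes are spread over the genome. Chromosomes 2, 5, 7, 11 and 14 carry 5 each, and 8, 12 and 17 carry none. Marc2 (chr1:184813068-184846451) and C130074G19Rik (chr1:184871926-184883218) lie 25.5 kb apart on the minus strand with no measured gene between them. On chromosome 11, Gm12171 and Dppa1 lie 50.7 kb apart with BC053393 between them, and on chromosome 14 Zfhx2 and Rec8 lie 525.7 kb apart with 11 measured genes between. Protein-coding genes make up 48 of the 50 (96%, against 90.7% of all genes), and 9 carry predicted or clone names (18%, against 13.2%).

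The median GC content of the longest transcript was 51.1% (quartiles 43.5 and 56.6), against 47.5% over all genes (42.8 and 52.9), and the median exon length 3094 bases, against 4023. At least 1 library was listed at 0 for 13 of the 50 (26%, against 13%), a share that the choice of low SL means can raise. How strand was handled is not stated. The whole spans of 13 members, introns included, overlap a gene on the other strand, so some of their reads could belong to that gene. Among these 13 are Cmtm7, Adh1, Mitf, Tfap2a and Zfhx2. A further limit holds for the 6 that overlap another gene on the same strand: Rgma, Myh13, Ttc28, Marc2, Naa80 and Fam53b.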

How the data were processed

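RNA was extracted with Trizol, captured on oligo(dT) beads and primed with random hexamers, per the labels' protocols. Reads were handled with Bowtie2 (2.0) and RSEM against mm10, per the submitters' processing notes. The authors deposited a table of 16443 genes in 21 libraries whose values, a normalized score rounded to whole numbers, have almost the same distribution in every library: sorted columns differ by at most 3, and 66.3% of ranks are identical. How they were normalized, their annotation and their use of strand are not given in the sources used here. Depth is therefore unknown, and neither counting intervals nor a count model were used. Forcing libraries to 1 distribution hides any change in total RNA. The second highest value of every gene is at least 21, so genes low throughout are absent.

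Of the columns, 16 matched a sample and 5 (p21 and p31) a group. Names, positions (1-based, mm10), GC content and length came from GENCODE M21, which held all 16443 IDs (16364 with the same symbol). The members, roles and gene lists were chosen with earlier results of these data known. The results of 1 of the 50 genes are not reported here, though it is in all counts, and the others are named, in detail where they have a listed pathway, the highest levels or ratios, or the largest changes.

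The deposited values were converted to log2(value + 1) and fitted with limma 3.58.1 (R 4.3.3; trend and robust variance, group terms and wave, all 21 libraries, 12 residual degrees of freedom). Two-sided p-values were adjusted by the Benjamini-Hochberg method over 16443 genes, with a threshold of 0.05. The fit was tested on simulated data. Counts and plots used Python 3.11.15 with pandas 2.3.3 and matplotlib 3.10.9. Alternatives changed the pseudocount, filter, wave term, libraries, pairing and member rule. The groups share replicate numbers, but deviations of same-numbered libraries did not go together, so the numbers were not used as pairs.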

Additional observations from a re-analysis of the deposited data

Results flagged for a closer look

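Among 100 sets of 4 libraries (the 50 genes in FNV and in SOX2 cells in 2i), 6 had a library standing apart by Dixon's test, and chance gives about 1 in 20 such sets. In FNV p31, Arhgef10l was 628 (504 to 517 in the other FNV libraries), Cadm4 was 523 (909 to 946) and Gm10147 was 0 (412 to 455). In FNV p21, Dmgdh was 478 (348 to 362). In FNV replicate 2, Gm8011 was 323 (7 to 10), and in SOX2 replicate 2, Naa80 was 103 (85 to 86).

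For 5 genes a line effect called in both media had opposite signs, with no overlap between the libraries of the compared lines in either medium. The same count was not made over all genes, so this number cannot be called high or low. The difference between media was not tested. Cmtm7 in SOX2 against NTC cells was also called with opposite signs (log2 change 0.41 in 2i and -0.94 in SL), but its 2i libraries overlapped. In SOX2 against NTC cells the log2 change of Cadm4 was 1.87 in 2i and -1.29 in SL, and that of Fzd10 was -1.08 in 2i and 2.14 in SL. In FNV against SOX2 cells it was 1.46 in 2i and -0.90 in SL for 2510009E07Rik, 1.28 and -1.15 for Crxos, and 2.28 and -3.30 for Trim43a. Several of the SL calls did not hold. Cadm4 lost its SL call whichever of the 4 libraries was left out, with adjusted p up to 0.167 (limma). In SL, 2510009E07Rik lost its call without FNV replicate 1 (0.0609), without SOX2 replicate 1 (0.0672) and without the wave term (0.221), as it did when the first-wave pairs were averaged (0.209) or only these 2 groups were fitted (0.19). Crxos lost its SL call without SOX2 replicate 2 (0.059), with the first-wave pairs averaged (0.205) and without the wave term (0.187). Trim43a lost its SL call in a fit of the 2 groups alone (0.191).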

How the results depend on the processing

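Across the alternative settings run, 1136 values of single called genes kept direction and call, 302 kept direction and lost the call, and 0 reversed. Without the wave term the calls among the 50 genes numbered 15 in FNV and 5 in SOX2 against NTC cells in 2i, 10 in FNV against SOX2 cells in 2i, 9 in SOX2 against NTC cells in SL and 7 in FNV against SOX2 cells in SL. With first-wave replicates averaged they numbered 11, 3, 9, 3 and 2 in the same order. Fits of the 2 groups alone gave 17 calls in SOX2 and 27 in miniSOX against NTC cells in 2i, 3 in SOX2 against NTC cells in SL and 8 in FNV against SOX2 cells in SL. The cause was not tested.

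Leaving out 1 library at a time gave 16 to 22 calls in FNV, 8 to 13 in miniSOX and 5 to 8 in SOX2 against NTC cells in 2i, 13 to 17 in FNV against SOX2 cells in 2i, 10 to 14 in SOX2 against NTC cells in SL and 9 to 12 in FNV against SOX2 cells in SL. The number of genes meeting the rule was 130 with a ratio of 2, 17 with a ratio of 5, 9 when applied to every library (added after the data were seen), and 43 to 54 with 1 library left out, 43 without NTC p31.

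With the replicate number as a block the calls were 23, 12 and 7 in FNV, miniSOX and SOX2 against NTC cells in 2i, 15 in FNV against SOX2 cells in 2i, and 14 and 15 in the SL comparisons. Correlations of same-numbered deviations over 28 pairs of groups ran from -0.112 to 0.105 (median -0.0135), with 1 over 0.1. Centring on the median log ratio, added after the data were seen, gave the same numbers of calls as the report in all 6 comparisons. The planned search for promoter motifs was not run.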

Other observations

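Among listed genes outside the 50, a few passed the floor and ratio within each line but not across lines, and they were picked after their values were seen. Gpnmb, a lysosomal glycoprotein and known Mitf target, had 2i means of 1660.8 in FNV, 781 in miniSOX, 428.2 in SOX2 and 68.7 in NTC cells, against SL means of 40.5, 15, 4 and 19.5. Its 2i means fall in the order FNV, miniSOX, SOX2, NTC, as do those of Adh1, Crxos, Cdx1, Lipo1, Trim43a, Gm12171, Gm16513 and Gm1527 among the members. Those of Mitf did not, at 527 in FNV, 549 in miniSOX, 376.2 in SOX2 and 368 in NTC cells. How many of all genes follow the order FNV, miniSOX, SOX2, NTC was not counted. Some steps in it are small, as for Gm1527, with means of 293 (SD 197.3), 263.5, 246.8 and 243.7. Lipo1, Gm16513 and Gm1527 are among the switching genes, whose means lie far from single libraries. The highest 2i mean was in miniSOX cells for 24 members and in FNV cells for 16.

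Choosing genes from second-wave libraries alone in 2i (added after the data were seen) gave 65 genes, of which 36 were among the 50. In 684 of all genes (4.2%) at least 1 library was at 0 and no library lay above 0 and at or below 20. Of the 50, 6 (12%) did so: Dmgdh, Gm10147, Gm16513, Il22ra2, Khdc1c and Vmn1r184. The choice of genes with low SL means can raise that share too.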
